A study of Camelus dromedarius with 4 samples.

Results

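Transcripts of the splicing machinery were followed in the supraoptic nucleus of the one-humped camel, a hypothalamic nucleus of vasopressin and oxytocin neurones that project to the posterior pituitary. The set held 55 gene symbols, chosen by name: symbols starting with HNRNP (22), SRSF (11), SF3A or SF3B (8) or SNRP (13), and DAZAP1. They are 55 of the 16053 symbols with a mean in both seasons in the authors' table. One further symbol, SF3B14, fitted the rule but had no means. DAZAP1 is a gene the study itself singled out in these libraries, so its season difference is not independent evidence.

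RNA-seq was available from 4 libraries, 2 from winter and 2 from summer, all from fully hydrated adult male dromedaries of the Tergui breed that were slaughtered for consumption. Winter and summer animals came from different towns of Algeria, so season cannot be told apart from place or day of collection. The count files held 6902037 and 4379162 reads on gene models in winter and 4406533 and 5520242 in summer. Across 33213 gene models, each winter library had a higher Spearman correlation with a summer library (0.919 and 0.922) than with the other winter library (0.878), and the summer libraries had the lowest (0.833). The median absolute log2 difference was 0.57 and 0.36 in those 2 pairs across seasons, 0.49 between the winter and 0.63 between the summer libraries. By that measure winter replicate 3 was closer to summer replicate 1 (0.357) than to the other winter library (0.4891). Winter replicate 2 was about as far from summer replicate 1 (0.4881) as from winter replicate 3. These measures are across gene models, which are not independent replicates.

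Intron removal is carried out by the spliceosome, which is built from small nuclear RNAs and their proteins. The Sm proteins (SNRPB, SNRPD1, SNRPD2, SNRPD3, SNRPE, SNRPF, SNRPG and, in brain, SNRPN) form a ring on the small nuclear RNAs, SNRPA and SNRPC belong to the particle that reads the start of an intron, and SNRPA1, SNRPB2 and the SF3A and SF3B proteins to the one that recognises the branch point. SR proteins (SRSF) usually bind exons and favour their inclusion, while hnRNP proteins coat nascent transcripts and often oppose it. DAZAP1 is an RNA-binding protein with roles in splicing and translation.

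Of the 50 members whose mean reached 10 normalized counts in either season, 31 had the higher mean in winter. This was 62.0%, against 46.2% of all 13811 symbols above the same floor. The excess lay mainly in the hnRNP genes, 17 of 21, and in DAZAP1. In the other families 6 of 11 SR, 5 of 10 SNRP and 2 of 7 SF3A and SF3B genes were higher in winter. The median log2(winter mean / summer mean) of the 50 was 0.20, with quartiles of -0.10 and 0.50. Over all symbols it was -0.04, with quartiles of -0.31 and 0.26. A season mean is the authors' average of 2 libraries, each divided by a size factor, and has no spread of its own. No test was therefore made on this shift, and with 2 libraries per season the smallest two-sided p of an exact permutation test would be 0.333.

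Winter means were more than 1.5-fold above summer means in 10 of the 50 members, with 10.1% of all symbols past the same line. They were HNRNPA1, HNRNPA2B1, HNRNPH1, HNRNPH2, HNRNPH3, HNRNPUL1, DAZAP1, SRSF4, SRSF12 and SNRPD1. SNRPE alone was more than 1.5-fold higher in summer (1 of 50, or 2.00%, against 12.1% of all symbols). DAZAP1 and HNRNPH2 exceeded 2-fold in winter (2 of 50, against 2.72% of all symbols), and no member did so in summer. The 31 members higher in winter, the 10 past 1.5-fold and the 2 past 2-fold all include DAZAP1. Its place there is not independent evidence, since the study had singled it out in these libraries. Of the 50 members, 49 passed the floor in both seasons and SF3A1 in summer only.

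**Figure D1:**
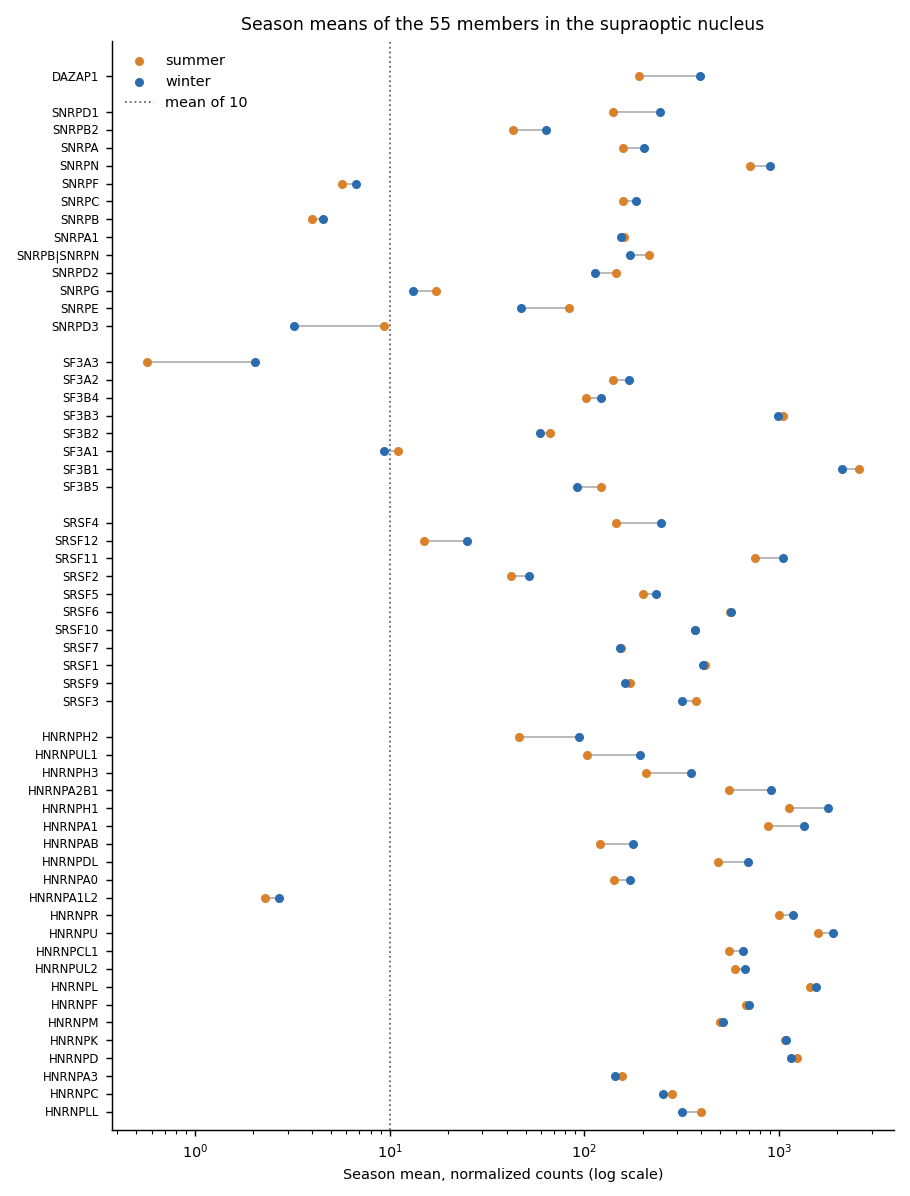
Season means of the 55 members, in normalized counts on a log axis, grouped by family and ordered by log2 ratio within each; orange points are summer, blue points winter, and each point is the authors' mean of 2 libraries. DAZAP1 (190 in summer, 396 in winter) and HNRNPH2 (46.2 and 94.2) have the widest gaps among members above the dotted line at 10.

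The hnRNP family showed the shift most widely. Of 21 members above the floor, 17 had the higher mean in winter, with a median log2 ratio of 0.25, and 6 were more than 1.5-fold higher in winter (28.6%). None was more than 1.5-fold higher in summer. HNRNPH2, whose protein binds runs of guanines near splice sites, had the largest ratio, with means of 46.2 in summer and 94.2 in winter (log2 ratio 1.03). Its relatives were higher in winter too, HNRNPH1 at 1135 and 1795 (log2 ratio 0.66) and HNRNPH3 at 208 and 352 (0.76), whereas HNRNPF, which recognises the same kind of sequence, had means of 676 and 700 (0.05). HNRNPUL1, a relative of the nuclear matrix protein HNRNPU, had means of 104 and 193 (0.89).

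The pre-mRNA packaging proteins of the A group did not move as one. HNRNPA1, which can silence exons by opposing SR proteins, had means of 881 in summer and 1351 in winter (log2 ratio 0.62), and HNRNPA2B1, which also takes part in RNA transport in neural cells, had 554 and 912 (0.72). HNRNPA0 was at 142 and 171 (0.27) and HNRNPA3 at 156 and 143 (-0.12). HNRNPAB (121 and 178, log2 ratio 0.56) and HNRNPDL (490 and 697, 0.51) stayed below the 1.5-fold line, and HNRNPD, which binds AU-rich elements of unstable mRNAs, had means of 1246 and 1159 (-0.10).

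The remaining hnRNP genes differed less. HNRNPU, with the highest mean of the family, was at 1590 in summer and 1888 in winter (log2 ratio 0.25). HNRNPR was at 999 and 1188 (0.25), HNRNPCL1 at 555 and 655 (0.24), HNRNPUL2 at 592 and 667 (0.17) and HNRNPL, which binds CA repeats, at 1452 and 1559 (0.10). HNRNPM (501 and 518) and the poly(C)-binding HNRNPK (1077 and 1090) had log2 ratios of 0.05 and 0.02. On the summer side lay HNRNPC (284 and 255, log2 ratio -0.15), which binds uridine tracts, and HNRNPLL (398 and 318), a paralogue of HNRNPL and at -0.32 the lowest of the family. RefSeq did not hold the symbol HNRNPCL1. Whether reads of that entry belong to HNRNPC was not tested, so the levels and directions of both entries are uncertain.

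SR proteins as a family were centred near no difference. Their median log2 ratio was 0.03 over 11 members, 6 of them higher in winter, and it passed to the other side of 0 (-0.00121, 5 of 11 higher in winter) when both seasons were scaled to equal totals. With the median of all symbols set to 0 it was 0.06, with 9 of 11 higher in winter. SRSF4 had means of 146 in summer and 249 in winter (log2 ratio 0.77), and SRSF12, a low-level relative of SRSF10, had 15.1 and 25.1 (0.74). They were the 2 members of the family past 1.5-fold in winter (18.2%), with none past it in summer. SRSF11, with the highest means, followed at 754 and 1052 (0.48), then SRSF2 at 42.3 and 52.2 (0.30) and SRSF5 at 201 and 235 (0.22).

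The founding member of the family, SRSF1, had means of 416 in summer and 408 in winter (log2 ratio -0.03). SRSF6 (561 and 571), SRSF7 (155 and 152), SRSF9 (172 and 163) and SRSF10 (372 and 370) had log2 ratios between -0.08 and 0.03. SRSF3, the smallest SR protein, was lowest of the family at 377 and 318 (-0.25).

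Components of SF3A and SF3B lay on the summer side. Their median log2 ratio was -0.18 over 7 members, 2 of them higher in winter, and none passed 1.5-fold in either direction. SF3B1, the large subunit that holds the branch point, had the highest season means of the whole set, at 2576 in summer and 2116 in winter (log2 ratio -0.28). SF3B3 had means of 1048 and 995 (-0.08), SF3B2 66.7 and 59.0 (-0.18) and SF3B5 122 and 92.2 (-0.41). Higher in winter were SF3A2 (140 and 170, log2 ratio 0.28) and SF3B4 (102 and 122, 0.27), and SF3A1 was at 11.04 and 9.36 (-0.24).

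**Figure D2:**
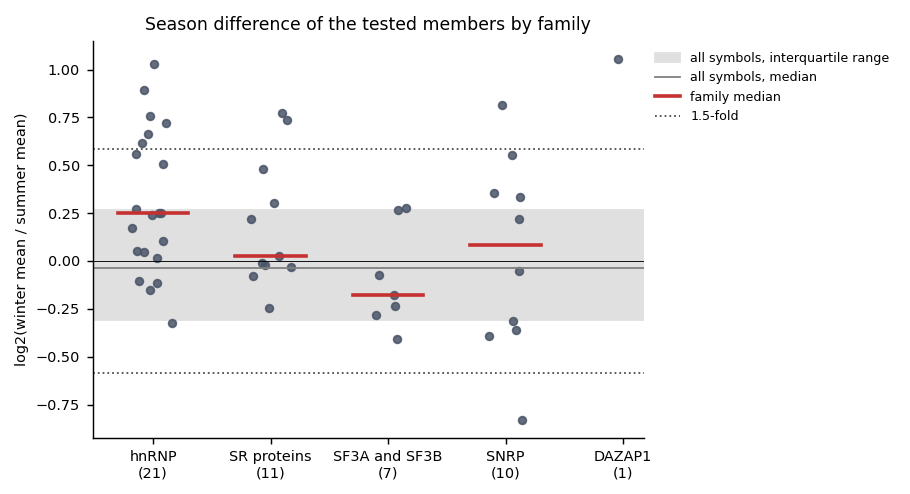
Each point is log2(winter mean / summer mean) of a member whose mean reached 10 in either season, by family, with the number of members in brackets; red bars are family medians, the grey band and line are the interquartile range (-0.31 to 0.26) and median (-0.04) of all 13811 symbols, and dotted lines mark 1.5-fold. The hnRNP median is 0.25 and the SF3A and SF3B median -0.18.

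The SNRP genes were split, 5 of 10 on each side, with a median log2 ratio of 0.08. The Sm ring proteins, which assemble together, had transcripts at both ends of the family: SNRPD1 had means of 140 in summer and 247 in winter (log2 ratio 0.82), while SNRPE had 83.8 and 47.2 (-0.83). SNRPD2 (145 and 113, log2 ratio -0.36) and SNRPG (17.3 and 13.2, -0.39) were also higher in summer. SNRPN, the Sm protein that brain uses in place of SNRPB, had means of 713 and 899 (0.33), the highest of the family. Reads assigned to the joint symbol of SNRPB and SNRPN had means of 215 and 173 (-0.31), a separate entry in the table, so the level of either gene alone is uncertain.

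Proteins of the U1 particle had slightly higher means in winter, SNRPA at 159 and 203 (log2 ratio 0.35) and SNRPC at 158 and 184 (0.22). Those of the U2 particle were SNRPB2, at 43.3 and 63.6 (0.55), and SNRPA1, at 161 and 155 (-0.05). SNRPB2 and SNRPA1 work as a pair in that particle, and their transcripts differed from each other in the season ratio, a difference that was not tested.

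The other 5 members stayed under a mean of 10 in both seasons. Their reads could be read off in each library, in winter and then in summer: HNRNPA1L2 had 3 and 3 reads against 0 and 4. SF3A3 had 4 and 1 against 0 and 1. SNRPB had 5 and 5 against 0 and 7. These counts are too few to order the seasons. SNRPF had 8 and 7 against 1 and 9, and SNRPD3 had 3 and 4 against 10 and 7. Many genes of these families have near-identical copies elsewhere in mammalian genomes, and reads without a unique alignment, 20.2% to 26.9% of alignments in the count files, were not counted, so the levels of such genes are uncertain.

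The spread between libraries was examined through reads recovered from the means. Each season mean is the average of 2 whole read counts, each divided by the size factor of its library. The size factors of a season were estimated from the low values among its means. Solving for whole numbers then returned the reads of each library. Library A below is the one with the larger size factor in its season and B the other (1.33 and 0.946 in winter, 0.922 and 0.877 in summer). They were not tied to replicate numbers. A single solution in both seasons was found for 12 of the 50 members. Because single solutions are lost at higher winter means, this subset leans to low winter means: over the 7649 symbols with a single solution above the floor the median log2 ratio was -0.12, and over the 12 members -0.15, against 0.20 for all 50.

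HNRNPH2 was the only one of the 12 with an unadjusted p under 0.05 in edgeR's quasi-likelihood test (1 of 12, against 1.99% of the 7649 symbols tested). It had 115 and 96 reads in winter libraries A and B and 40 and 43 in summer, or 86.8 and 102 against 43.4 and 49.0 after normalization. Both winter libraries lay about 2-fold above both summer libraries. The log2 fold change was 1.02 with a standard error of 0.38 (unadjusted p = 0.0278, adjusted p = 0.982 in edgeR's quasi-likelihood test). After adjustment over all symbols 0 of the 12 members passed, as with edgeR's exact test, DESeq2 and limma-voom, which had 1, 0 and 1 members at an unadjusted p under 0.05. Leaving out winter library A or B or summer library A left HNRNPH2 above that limit (unadjusted p = 0.0964, 0.187 and 0.0521 in edgeR's quasi-likelihood test), with log2 fold changes of 0.91 to 1.13.

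In 4 of the 12 members the seasons did not overlap, with each library of the one season higher than each of the other (33.3%, against 30.5% of the 7649 symbols). SNRPB2 had normalized reads of 57.3 and 69.8 in winter and 45.5 and 41.0 in summer (log2 fold change 0.55, SE 0.42). SRSF12 had 27.9 and 22.2 in winter and 13.0 and 17.1 in summer (log2 fold change 0.75, SE 0.67), from 12 to 37 reads per library. SNRPD2 had 113 and 113 in winter and 137 and 154 in summer (log2 fold change -0.36, SE 0.32). The share of members with separate seasons was thus close to that of symbols at large.

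In the other 8 the seasons overlapped. SNRPE, the member furthest on the summer side, had normalized reads of 30.9 and 63.5 in winter and 110 and 58.1 in summer. Its summer mean was set by library A, and summer library B lay below winter library B. The log2 fold change was -0.86 with an SE of 0.51 (unadjusted p = 0.135 in edgeR's quasi-likelihood test), and it was -0.31 without summer library A and -0.40 without winter library A. It was -1.44 without winter library B (unadjusted p = 0.0891 in edgeR's quasi-likelihood test) and -1.23 without summer library B (unadjusted p = 0.00913, adjusted p = 0.128 in the same edgeR test).

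SF3B5 had 125 and 59.2 in winter and 144 and 100 in summer, and SF3B4 had 139 and 106 against 123 and 80.9. In SF3B5 the winter libraries were 2.12-fold apart, while the season means, each an average of 2 libraries, were 1.33-fold apart. SRSF2 had 64.1 and 40.2 in winter and 41.2 and 43.3 in summer, a winter excess present in library A only. SF3B2 had 56.6 and 61.3 against 86.8 and 46.7, and HNRNPA3 had 112 and 174 against 180 and 131. SNRPG had 15.8 and 10.6 against 13.0 and 21.7, and SF3A1 had 11.3 and 7.40 against 14.1 and 7.98. In each of these a library of the lower season exceeded a library of the higher one.

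**Figure D3:**
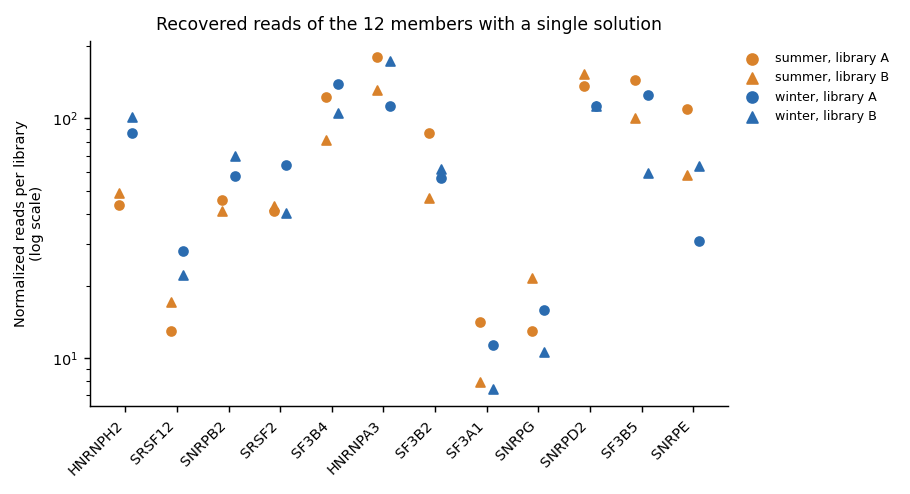
Normalized reads (log axis) of the 12 members with a single solution, ordered by log2 fold change; circles are library A and triangles library B of a season, blue winter and orange summer. HNRNPH2 (86.8 and 102 in winter, 43.4 and 49.0 in summer) has the widest separation of seasons; SNRPE (30.9 and 63.5, 110 and 58.1) overlaps.

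For 28 more members, including most of those past 1.5-fold, up to 20 combinations of solutions existed, and every one was tested. The remaining members, among them HNRNPA1 and HNRNPH1 (both past 1.5-fold in winter), had more combinations and were not tested. DAZAP1 had season means of 190 in summer and 396 in winter (log2 ratio 1.06). Its summer libraries had 168 and 174 reads (182 and 198 after normalization), while the winter libraries had 216 and 594, 401 and 462, or 586 and 330 reads. After normalization these are 163 and 628, 303 and 489, or 442 and 349. The winter pair exceeded the summer pair without overlap in the last 2 solutions, and in the first winter library A was the lowest of the 4. The log2 fold change was 1.05 to 1.06, with unadjusted p-values of 0.0591 to 0.170 in edgeR's quasi-likelihood test. The study counted DAZAP1 among its season-regulated transcripts, at more than 2-fold and an uncorrected p under 0.05 in an exact test. The test here was a different one, and no solution passed 0.05 in it.

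HNRNPUL1 had 117 and 90.05 normalized reads in summer and either 200 and 185 or 340 and 45.5 in winter. The seasons were separate in the first solution and overlapped in the second, and the unadjusted p was 0.0379 or 0.306 in edgeR's quasi-likelihood test. SRSF4 had 129 and 163 in summer and either 211 and 288 or 71.7 and 427 in winter (unadjusted p = 0.0931 or 0.346 by the same edgeR quasi-likelihood test). SNRPD1 had 94.3 and 186 in summer and either 152 and 342 or 12.1 and 481 in winter, and its seasons overlapped in both solutions.

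HNRNPH3 had 287 and 129 normalized reads in summer, so that its 2 summer libraries differed by 2.23-fold. Its season means, each an average of 2 libraries, differed by 1.69-fold. Its winter libraries had 307 and 397, 168 and 536, or 27.9 and 676. HNRNPAB had 141 and 100 in summer and either 154 and 202 or 294 and 62.4 in winter. HNRNPA2B1 had 95.4 and 1012 or 653 and 455 in summer. Its unadjusted p was 0.470 to 0.660 over its 12 solutions in edgeR's quasi-likelihood test. Of the 28 members none had an unadjusted p under 0.05 in every solution and 1, HNRNPUL1, had it in some, and the lowest adjusted p was 0.982 in edgeR's quasi-likelihood test. Over all solutions of all 50 members, 3 had winter above summer whatever the solution, 1 had summer above winter, 24 always overlapped and in 22 it depended on the solution. The seasons were thus separate whatever the solution in 6.00% (winter above) and 2.00% (summer above) of members, against 7.60% and 9.57% of all 13811 symbols. These shares are not alike, because the verdict depended on the solution in 22 of 50 members but in only 2216 of the 13811 symbols. No lack of separation among the members can be read from them.

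**Figure D4:**
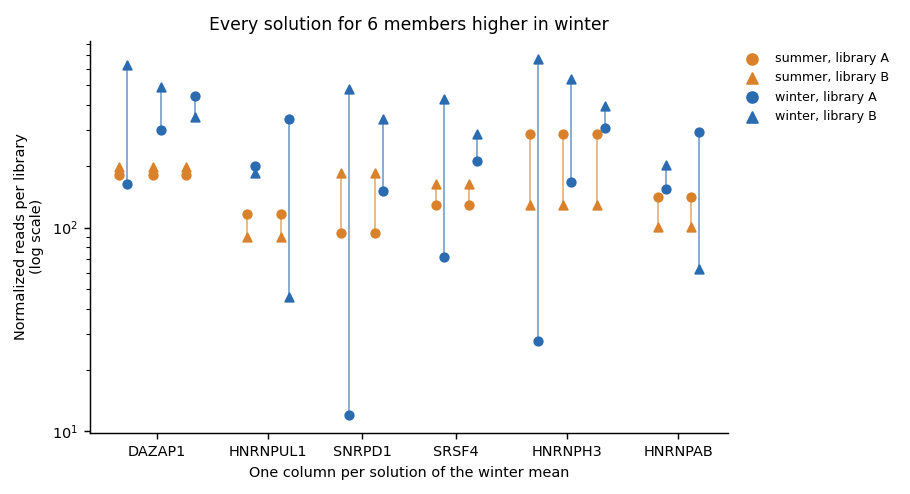
Normalized reads (log axis) in each library for 6 members higher in winter, with 1 column per solution of the winter mean; circles are library A and triangles library B, blue winter and orange summer. The winter pair ranges from close together (HNRNPUL1, 200 and 185) to far apart (HNRNPUL1, 340 and 45.5), while the summer pair is known.

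The summer libraries, where 32 members above the floor had a single solution, allowed the spread within a season to be set beside the season difference. In 18 of the 32 the summer libraries differed by more than the season means. The measures are unlike, because single libraries vary more than means of 2 libraries, so a larger difference between single libraries is no surprise. The median absolute log2 difference was 0.39 between summer libraries and 0.31 between seasons, beside 0.49 and 0.30 over the 11852 symbols of the same kind. Splicing transcripts leaned to library A: 22 of 32 were higher in A, with a median log2(A/B) of 0.33, while over all symbols 46.5% were higher in A with a median of -0.07. Past 1.5-fold, 9 of 32 members were higher in A (28.1%, against 15.6% of all symbols) and 2, SNRPD1 and SNRPG, in B (against 27.0%).

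The lean to library A was largest in HNRNPH3 (log2(A/B) 1.16), SRSF5 (1.15), SRSF9 (1.01) and SNRPE (0.91). SF3B2 (0.89), SF3A1 (0.82), SRSF10 (0.69), SF3B4 (0.60) and SRSF1 (0.59) also passed 1.5-fold. Among genes of the SF3A and SF3B group, 4 of 5 were higher in A with a median of 0.60, and among SR proteins 6 of 9 with a median of 0.38. SNRPD1 leaned the other way (-0.98). DAZAP1 (-0.12), HNRNPH2 (-0.18) and HNRNPC (-0.04) differed little between the summer libraries.

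**Figure D5:**
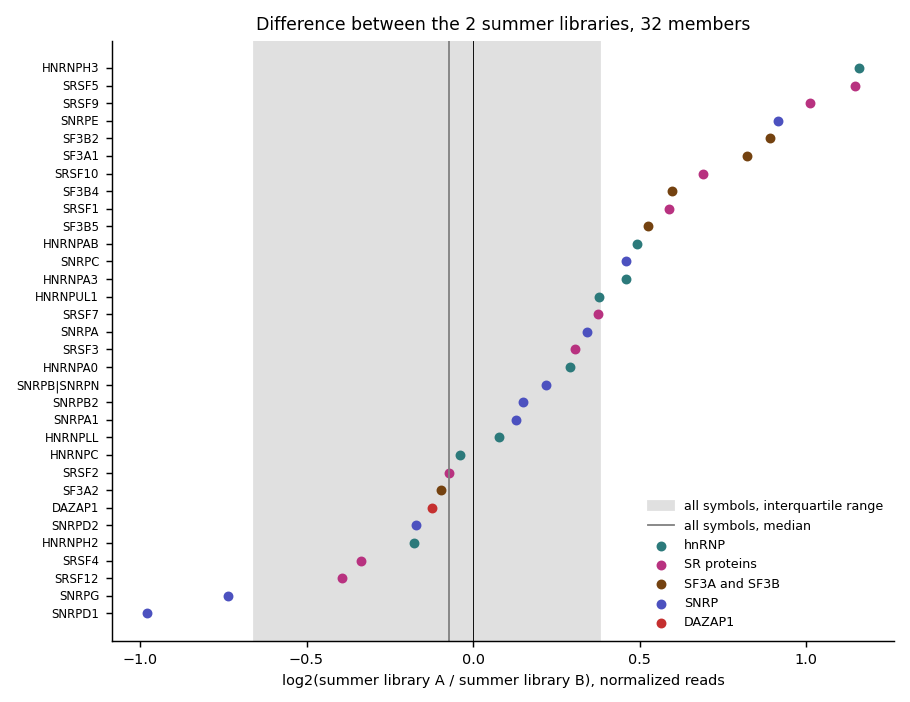
log2(summer library A / summer library B) of normalized reads for the 32 members with a single solution in summer, coloured by family; the grey band and line are the interquartile range and median (-0.07) of 11852 symbols. Of the 32 members, 22 lie to the right of 0, from SNRPD1 at -0.98 to HNRNPH3 at 1.16.

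Genes of the splicing pathway outside these names were also described, in 5 lists with 103 genes above the floor. Of these 53 were higher in winter, with a median log2 ratio of 0.04, and 11 (10.7%) were more than 1.5-fold higher in winter and 5 (4.85%) in summer, beside 10.1% and 12.1% of all symbols. Single solutions allowed a test in 29 of the 103, of which 0 had an unadjusted p under 0.05 in edgeR's quasi-likelihood test. The hnRNP proteins filed under other symbols had 8 of 13 higher in winter (median 0.18), and the PRPF and catalytic step proteins 13 of 29 (median -0.08). Other snRNP and U2 auxiliary proteins had 9 of 18 (median 0.02), with 3 past 1.5-fold in winter and none in summer. SR-like proteins and SR kinases had 10 of 18 (median 0.05), with 5 past 1.5-fold in winter (27.8%) and none in summer, beside 28.6% and none in the hnRNP family above. Neuronal and glial splicing regulators had 13 of 25 (median 0.05), with 3 past 1.5-fold in winter and 4 in summer. The 2 genes past 2-fold, both higher in summer and both of low level, were MBNL3 (15.5 in summer, 3.17 in winter) and ESRP1 (19.8 and 8.15), a regulator known mainly from epithelia.

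Cell type markers also differed between the seasons and between the libraries of a season. Of the markers listed for magnocellular neurones, 7 of 9 had the higher mean in winter (median log2 ratio 0.70, summed means 1868 in summer and 2746 in winter). Among these the general neuronal or secretory genes SCG2 (554 and 1195), CHGB, SNAP25, SYT1 and RBFOX3 were all more than 1.5-fold higher in winter, while OXT was at 592 and 621. The peptide precursor PDYN (127 and 35.9) and the prohormone convertase PCSK1 (69.1 and 32.9) were more than 2-fold higher in summer, so the list did not move as a unit. Oligodendrocyte markers were higher in winter in 8 of 9 (median 0.36, sums 34358 and 39000), and the astrocyte markers summed to 38320 in summer and 23224 in winter (median -0.65, 4 of 9 higher in winter). Most of the astrocyte sums came from GFAP (25074 in summer and 14423 in winter) and S100B (11788 and 7490). Microglia markers were higher in winter in 3 of 8 (median -0.16, sums 8503 and 6517), and endothelial and mural markers in 3 of 10 (median -0.21, sums 2160 and 1885). AVP and GAL of the neurone list were not matched by symbol, and ELAVL4 had no means, so they are not analysed here.

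Within summer, the medians of the neurone and astrocyte lists lay towards library B, with log2(A/B) of -1.12 over 7 genes (2 of them, PDYN and PCSK1, higher in A) and -1.16 over 6 (none higher in A), against 0.33 for the splicing transcripts. Oligodendrocyte (0.40, 3 genes) and microglia (0.77, 2 of 3 genes higher in A) markers leaned to A, as the splicing transcripts did. Endothelial and mural markers had 0.17 (6 of 9 higher in A). Within winter, the neurone and astrocyte markers lay towards library A, with medians of 0.78 and 1.29 (4 of 4 genes higher in A in each). Winter medians were 0.20 for microglia (2 of 3), 0.06 for endothelial and mural markers (4 of 6) and 0.17 for the splicing transcripts (7 of 12). Splicing transcripts are made by all cell types, and in bulk tissue fewer cells of a type cannot be told apart from less RNA per cell. The part of these marker differences in the winter lean of the hnRNP transcripts was not tested.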

How the data were processed

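Libraries were grouped by season from the sample labels. Per the study's methods, ribosome-depleted stranded total RNA was sequenced as paired ends, aligned with TopHat to the authors' own assembly and counted with HTSeq. The deposited count files hold raw read counts per unnamed gene model and served here only for depth and similarity between libraries. Their tallies of reads outside gene models (46.4% to 55.2%) and without a unique alignment (20.2% to 26.9%) stayed out of totals. The deposited table gives per symbol the authors' signal, the mean of counts over DESeq size factors in each season. Its other columns, the authors' edgeR fold change and p-value, were not used.

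Whole reads per library were recovered from the means (6 significant digits) by solving each for 2 whole numbers. The size factors used for this were estimated from the low values of the same means. All 16053 symbols could be solved, and 9891 had a single solution in both seasons. Symbols of that kind reaching a mean of 10 in either season were tested by edgeR 4.0.16 in R 4.3.3 (glmQLFit with legacy FALSE, glmQLFTest, season as the only term, Benjamini-Hochberg adjustment). Standard errors are the log2 fold change over the square root of the F statistic. DESeq2 1.42.0, limma 3.58.1 (voom), other scalings and filters, and leaving out each library were alternatives. Testing every solution of members with up to 20 was added after the data were examined. Scripts were tested on simulated data. The study compared 2 camels per season by RNA-seq, for 2 libraries each.

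Members and lists were chosen with earlier results of these data known. Named genes were DAZAP1, the highest, most increased and most decreased of each family, all members past 1.5-fold or p of 0.05, those with single solutions, those under a mean of 10, and listed genes past 2-fold. Other members were named by their levels. RefSeq held 52 of the 55 symbols, all but HNRNPA1L2, HNRNPCL1 and the joint SNRPB and SNRPN symbol. Lengths of the authors' gene models were not available here, so the highest means named are by counts and not per length.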

Additional observations from a re-analysis of the deposited data

How the results depend on the processing

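The median log2 ratio of the 50 members was 0.20 and ranged from 0.17 to 0.23 under the other filters, pseudocounts and scalings. The count of members more than 1.5-fold apart (11) ranged from 10 to 13 under those settings, and was 2 at a 2-fold and 0 at a 3-fold threshold. The count of members with an unadjusted p under 0.05 (1, HNRNPH2) was 0 with DESeq2 and 0 to 2 when a library was left out, and 2 when a member with p under 0.05 in at least 1 of several solutions was added (HNRNPUL1). No setting gave any of the members that could be tested an adjusted p under 0.05. The median over the 12 members with single solutions (-0.15) ranged from -0.14 to 0.25 when a library was left out, and changed sign to 0.04 without winter library B and 0.25 without summer library A. Without summer library A 1165 of 7649 symbols had an unadjusted p under 0.05 in edgeR's quasi-likelihood test (999 higher in summer), and without summer library B 1232 (970 higher in winter), against 152 with all 4 libraries. The cause was not tested. A library left alone in its season was assumed to vary like the other season. No paired analysis was possible, because the animals were slaughtered and so each was sampled in a single season.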
